A study of Saccharomyces cerevisiae with 12 samples.

Results

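The genes described here encode the main soluble and membrane-bound peptidases of the yeast vacuole together with 2 cytosolic inhibitors of them. They are PEP4, PRB1, PRC1, CPS1, DAP2, PBI2 and PAI3, found by symbol in the annotation of the array's probe sets, 7 of the 5656 genes that had a probe set of their own. Each was represented by 1 probe set, and each exceeded the detection floor on all 12 arrays. Transcript levels had been measured in chemostat cultures of Saccharomyces cerevisiae, with 1 one-colour Affymetrix array per sample and 3 arrays in each of 4 groups. The strains were CEN.PK113-7D, the reference with an intact LEU3, and CEN.PK540-3A, in which a loxP-Kan-loxP cassette took the place of LEU3 sequence. Both were labelled as haploid, prototrophic and MATa, and each genotype came from 1 strain. In the carbon-limited groups the feed held ethanol at 6.0 g/l as the limiting carbon source, and ammonium sulfate at 5.0 g/l. In the nitrogen-limited groups ammonium sulfate was reduced to 1.0 g/l and glucose was in excess (59 g/l in the feed of CEN.PK113-7D, 53 g/l in that of CEN.PK540-3A, about 17 g/l left over). Dilution (0.10 per h), temperature (30 °C) and pH (5.0) were the same throughout. The nature of the carbon source and the limiting nutrient changed together, so their parts in a difference cannot be told apart. Under nitrogen limitation the glucose feed also differed with the strain, so its part in a strain difference cannot be told apart either.

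The vacuole is the degradative compartment of yeast, comparable to the lysosome. Its peptidases are made as inactive precursors, travel through the secretory pathway and are activated in a cascade that starts with proteinase A, the product of PEP4. They break down proteins delivered by autophagy and endocytosis and return amino acids to the cytosol, a function known to matter most when nitrogen is scarce. The inhibitors are small cytosolic proteins that bind a single protease each: the PAI3 product binds proteinase A and the PBI2 product binds proteinase B, the product of PRB1.

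The labels held against the targeted gene, since LEU3 gave 59.9 to 110.4 on the reference arrays and 0.3 to 0.6 on the deletion arrays. Array quality was uneven. The 3′/5′ signal ratio of actin, which rises when labelled transcripts are short, was 1.54 to 1.91 in the deletion strain and 2.45 to 3.29 in the nitrogen-limited reference. On the carbon-limited reference arrays 1, 2 and 3 it was 3.31, 9.27 and 13.98. The same ratio for SPT15 overlapped between strains under nitrogen limitation (3.31 to 4.09 in the deletion strain, 3.42 to 3.68 in the reference). Under carbon limitation it was 2.56 to 2.93 in the deletion strain and 3.64, 8.08 and 10.05 on reference arrays 1, 2 and 3. Arrays of the carbon-limited reference correlated least with each other (Spearman's rho 0.959 to 0.973, against 0.981 or more within the other groups). A bacterial control transcript (ThrX) was bright on nitrogen-limited reference arrays 2 and 3 only (3095 and 2748, at most 1.6 elsewhere). Of markers of mating type, the 7 a-cell genes summed to between 2903 and 9092 on every array and the 4 alpha-cell genes to between 138 and 528, with the highest alpha-cell sums in the nitrogen-limited reference.

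**Figure D1:**
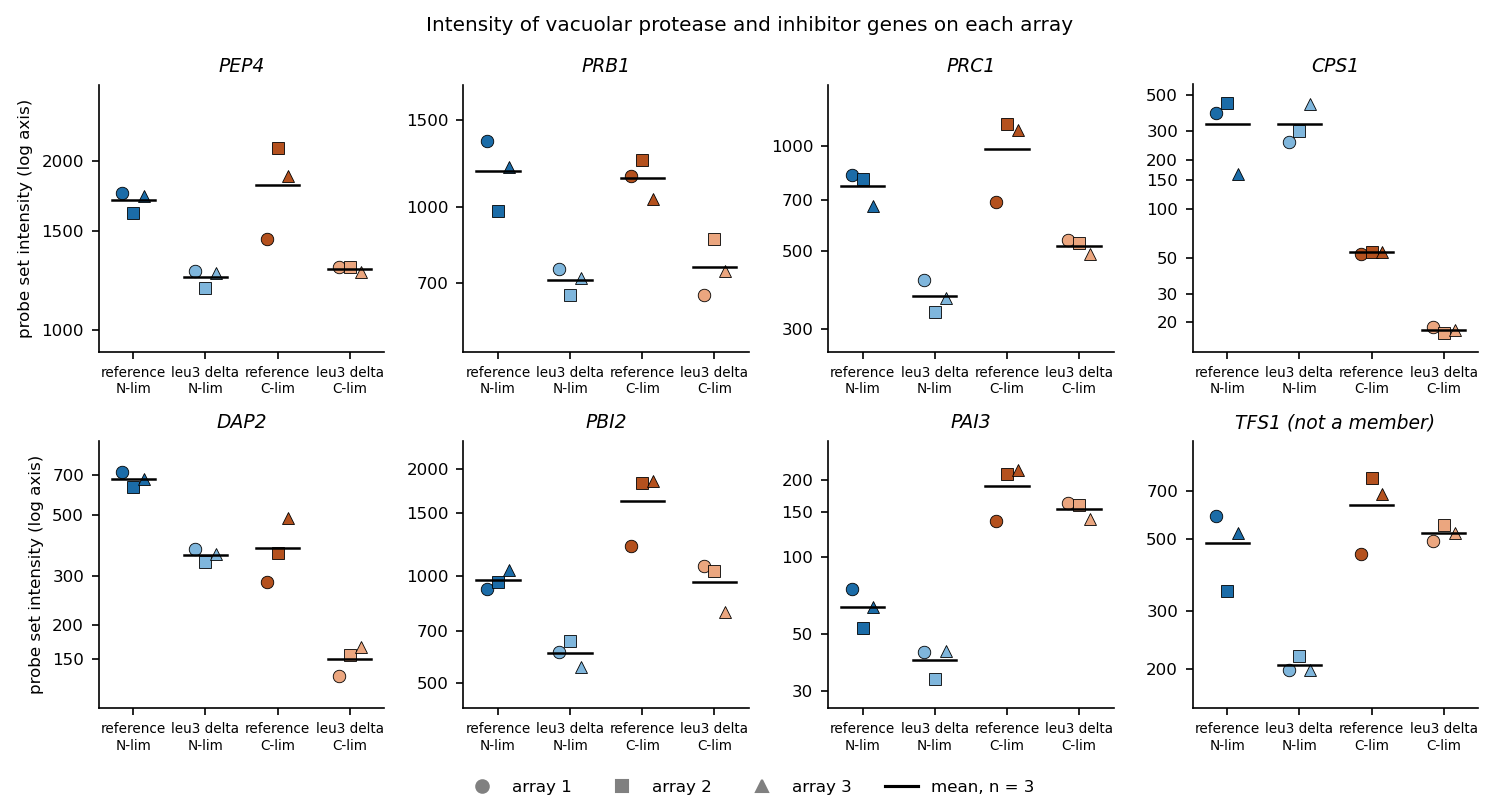
Probe set intensity (log axis) of the 7 genes and of TFS1 on each of the 12 arrays, with 3 arrays per group drawn as circle, square and triangle and the group mean as a line. PEP4, PRB1 and PRC1 sit lower in both deletion groups, CPS1 is high in both nitrogen-limited groups and lowest at 17.2 to 18.8 in the carbon-limited deletion strain, and PAI3 is high in both carbon-limited groups.

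Values below are probe set intensities, scaled by the authors to a common mean per array. They can be set against each other for 1 gene across groups but not between genes. Changes are log2 differences from a limma model of the 4 groups (n = 3 arrays each), and a value after ± is the standard error of the change. The adjusted p-values are limma's, adjusted over all 5321 genes tested. A change passed at an adjusted p under 0.05.

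PEP4 (YPL154C), the aspartyl protease at the head of the activation cascade, gave 1757, 1619 and 1734 in the nitrogen-limited reference and 1275, 1192 and 1265 in the nitrogen-limited deletion strain. In carbon-limited cultures it gave 1453, 2108 and 1882 in the reference and 1298, 1296 and 1270 in the deletion strain. All 6 deletion arrays lay below all 6 reference arrays, and within a strain the limitations overlapped. PEP4 fell by 0.45 ± 0.15 log2 under nitrogen limitation (1.37-fold, adjusted p = 0.0359) and by 0.48 ± 0.15 under carbon limitation (1.39-fold, adjusted p = 0.0242). These are the smallest called changes among the 7 genes, and the nitrogen-limited call ended when any 1 of its 6 arrays was left out (adjusted p = 0.0502 to 0.103). The change between limitations was -0.07 in the reference (95% confidence interval -0.38 to 0.24) and -0.05 in the deletion strain (-0.36 to 0.26).

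PRB1 (YEL060C) encodes proteinase B, a serine protease of the subtilisin family. It gave 1363, 980.5 and 1207 in the nitrogen-limited reference against 746.4, 663.3 and 716.7 in the deletion strain. Carbon-limited arrays gave 1156, 1245 and 1036 in the reference and 660.9, 860.3 and 739.2 in the deletion strain. Reference and deletion arrays again did not overlap under either limitation. The fall was 0.73 ± 0.16 log2 under nitrogen limitation (1.66-fold, adjusted p = 0.00393) and 0.61 ± 0.16 under carbon limitation (1.52-fold, adjusted p = 0.0104). Like PEP4, PRB1 showed no difference between limitations that passed (0.04 in the reference, interval -0.29 to 0.37, and -0.08 in the deletion strain, interval -0.41 to 0.25).

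PRC1 (YMR297W) encodes carboxypeptidase Y, the serine carboxypeptidase long used to follow transport to the vacuole. Its nitrogen-limited values were 824.3, 806.3 and 672.0 in the reference and 414.3, 336.6 and 367.0 in the deletion strain, the largest called strain difference of the 7 under nitrogen limitation (-1.04 ± 0.18 log2, 2.06-fold, adjusted p = 0.000921). In this comparison 2.65% of tested genes had a lower value. Under carbon limitation it gave 689.6, 1150 and 1107 in the reference and 537.3, 529.4 and 491.2 in the deletion strain (-0.88 ± 0.18, 1.85-fold, adjusted p = 0.00318). Reference array 1 lay far closer to the deletion arrays than arrays 2 and 3 did. PRC1 was the only 1 of the 5 protease genes whose values under nitrogen limitation were below those under carbon limitation without overlap in the deletion strain (-0.48, interval -0.87 to -0.09), a change that narrowly missed the threshold (adjusted p = 0.0514). In the reference strain the corresponding value was -0.32 (-0.71 to 0.06), with overlapping arrays.

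CPS1 (YJL172W), the gene of the zinc-dependent carboxypeptidase S, varied most. The nitrogen-limited values were 387.4, 449.0 and 163.9 in the reference and 259.7, 302.6 and 442.2 in the deletion strain, which overlapped fully. The carbon-limited values were 53.1, 54.5 and 54.4 in the reference and 18.8, 17.2 and 18.0 in the deletion strain, within a narrow spread and well apart. With nitrogen limiting, CPS1 rose 5.66-fold in the reference (2.50 ± 0.29, adjusted p = 5.14e-06) and 18.1-fold in the deletion strain (4.18 ± 0.29, adjusted p = 1.26e-08). In these comparisons 99.2% and 99.8% of tested genes had a lower value. Its strain difference was -1.59 ± 0.29 under carbon limitation (3.00-fold, adjusted p = 0.00143) and 0.10 under nitrogen limitation (interval -0.52 to 0.71, adjusted p = 0.855).

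The carbon-limited deletion values of CPS1 lay just above the floor of 12. With a floor of 30, which replaces all 3 of them, the strain difference under carbon limitation was -0.85 (adjusted p = 0.113). The rise of CPS1 with nitrogen limiting in the deletion strain ranged from 3.33 to 4.35 log2 over 25 alternative settings. The nitrogen-limited reference spread over more than the other groups because of array 3. Without that array the nitrogen-limited strain difference was -0.35, and still did not pass (adjusted p = 0.253).

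DAP2 (YHR028C) encodes dipeptidyl aminopeptidase B, an integral protein of the vacuolar membrane. With nitrogen limiting it gave 716.9, 633.1 and 674.7 in the reference against 377.1, 338.9 and 363.1 in the deletion strain. With carbon limiting it gave 287.1, 365.1 and 489.6 in the reference against 130.1, 155.6 and 166.1 in the deletion strain. The highest and lowest groups stood clear of the middle pair, the carbon-limited reference and the nitrogen-limited deletion strain, which overlapped. DAP2 fell in the deletion strain under both limitations, by 0.91 ± 0.18 with nitrogen limiting (adjusted p = 0.00192) and by 1.31 ± 0.18 with carbon limiting (2.48-fold, adjusted p = 0.000208). It was also higher under nitrogen limitation in both strains (0.86 ± 0.18, adjusted p = 0.00109 in the reference, and 1.26 ± 0.18, adjusted p = 4.52e-05 in the deletion strain).

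PBI2 (YNL015W), the inhibitor of proteinase B, gave 916.0, 957.5 and 1040 in the nitrogen-limited reference and 609.6, 656.3 and 551.5 in the deletion strain. Under carbon limitation it gave 1216, 1825 and 1848 in the reference and 1067, 1029 and 789.2 in the deletion strain. The strains did not overlap under either limitation, with falls of 0.68 ± 0.18 (1.61-fold, adjusted p = 0.0124) and 0.75 ± 0.18 (1.68-fold, adjusted p = 0.00664). Unlike the gene of its target protease, PBI2 was lower under nitrogen limitation in both strains (-0.72 ± 0.18, adjusted p = 0.00375 in the reference, and -0.66 ± 0.18, adjusted p = 0.009 in the deletion strain). As with PRC1, carbon-limited reference array 1 was the lowest of its group by a wide margin.

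PAI3 (YMR174C), the inhibitor of proteinase A, moved mainly with the limitation. The nitrogen-limited values were 75.0, 52.7 and 63.7 in the reference and 42.6, 33.5 and 42.8 in the deletion strain, and the carbon-limited values were 138.5, 211.2 and 219.4 in the reference and 162.6, 159.6 and 141.5 in the deletion strain. Every carbon-limited array lay above every nitrogen-limited one. PAI3 was 2.94-fold lower under nitrogen limitation in the reference (-1.56 ± 0.19, adjusted p = 1.01e-05) and 3.92-fold lower in the deletion strain (-1.97 ± 0.19, adjusted p = 7.81e-07). Between strains, PAI3 was lower in the deletion strain than in the reference under nitrogen limitation (-0.68 ± 0.19, 1.60-fold, adjusted p = 0.0185). Under carbon limitation the strains overlapped and the change was -0.27 (interval -0.67 to 0.14, adjusted p = 0.31).

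**Figure D2:**
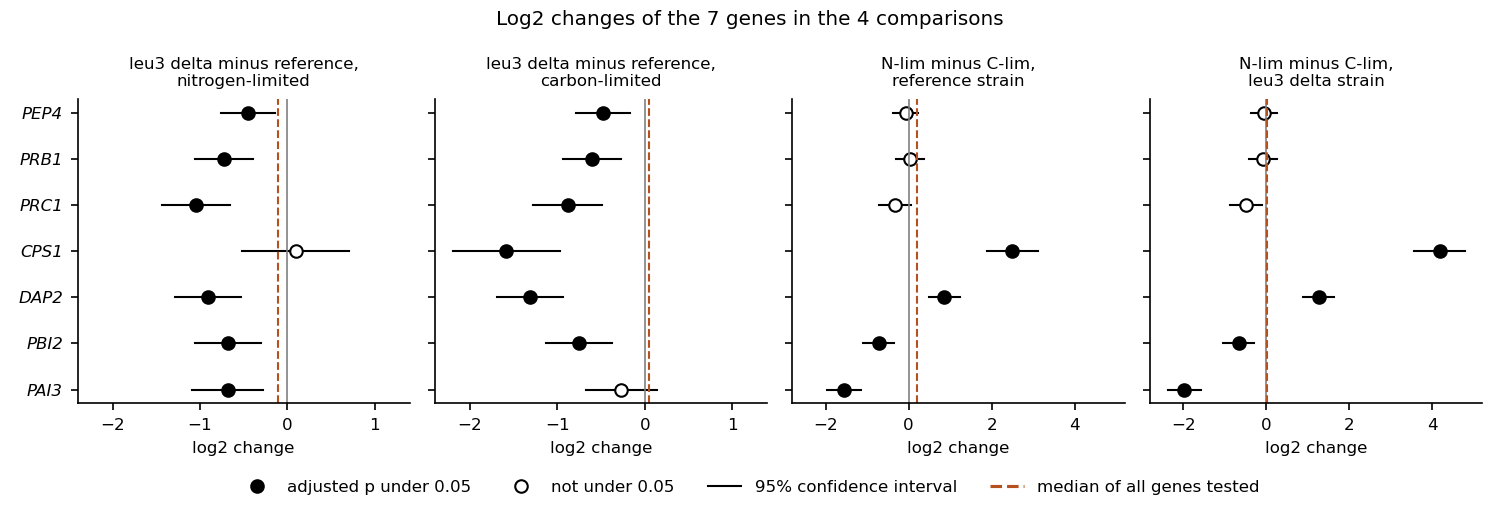
Log2 change of each gene in the 4 comparisons, with 95% confidence intervals from limma as bars and filled symbols at an adjusted p under 0.05. Strain changes are mostly between -0.45 and -1.59, while the changes between limitations run from -1.97 for PAI3 to 4.18 for CPS1, with PEP4 and PRB1 near 0.

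The first strain comparison concerns LEU3 deletion with ammonium scarce and glucose in excess. PEP4, PRB1, PRC1, DAP2, PBI2 and PAI3 were lower in the deletion strain and CPS1 did not pass, so that 6 of 7 genes fell and none rose. Over all genes tested, 22.2% were called, 16.1% lower and 6.05% higher. The median change of the 7 was -0.68, against -0.11 for all genes. Arrays of the strains did not overlap for the same 6 genes, and 29.8% of all genes were lower without overlap. The genes were chosen with earlier results of these data known, so the count describes them and is no independent test. PRB1, PRC1 and DAP2 passed under all 25 alternative settings. PBI2 and PAI3 were not called after the arrays were centred on their medians (-0.54 and -0.54, adjusted p = 0.052 and 0.0751), nor was PEP4 (-0.31, adjusted p = 0.179), which left 3 genes. Centring turned the split over all genes from 322 higher and 859 lower to 538 higher and 485 lower. With the actin ratio as a term, PEP4 (-0.32) and PAI3 (-0.46) were not called, and PAI3 was not called after quantile normalization (-0.58). Leaving out 1 array gave 3 to 6 calls, with 3 without reference array 3. PBI2 was lost without deletion array 3 (-0.62) or reference array 3 (-0.63), and PBI2 (-0.60) and PEP4 (-0.50) without both reference arrays with a bright ThrX signal, which left 4 calls. PAI3 was lost without deletion array 2 (-0.56) or reference arrays 1 (-0.56) or 3 (-0.67).

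The second strain comparison concerns the same deletion with ethanol limiting and ammonium in excess. All 5 protease genes and PBI2 were lower in the deletion strain, and PAI3 did not pass. Over all genes 28.1% were called, 10.7% lower and 17.4% higher (926 higher and 568 lower, or 539 and 996 after the arrays were centred). The median change was -0.75 for the 7 genes against 0.05 for all genes. Arrays did not overlap for the 6 called genes, as for 16.2% of all genes in the lower direction. The SPT15 3′/5′ ratio separated the strains under carbon limitation only. The actin 3′/5′ ratio was higher on the reference than on the deletion arrays under both limitations, and highest on carbon-limited reference arrays 2 and 3. With those 2 arrays left out, only DAP2 passed (-0.94); the spread of the lone remaining array was then assumed to equal that of the other groups. Without them the values split: CPS1 (-1.56) and PRB1 (-0.63) kept their size, while PRC1 (-0.41), PBI2 (-0.35) and PEP4 (-0.17) shrank by more than 1.5 times and PAI3 stood at 0.16. With the actin ratio as a term in the model none of the 7 passed, and 54 genes did in all. The lowest ratio among reference arrays (2.45) exceeded the highest among deletion arrays (1.91), so the term overlaps with strain. Under that model CPS1 stood at -1.80, PRB1 at -0.68, DAP2 at -0.66, PRC1 at -0.22, PBI2 at -0.12, PEP4 at -0.05 and PAI3 at 0.43. A fit of the 6 carbon-limited arrays alone left PEP4 (-0.48) and PBI2 (-0.75, adjusted p = 0.0591) uncalled, and quantile normalization left PEP4 uncalled (-0.31). The part of RNA quality in these strain differences cannot be told apart from that of strain. With 1 array left out at a time, PRB1 was lost without deletion array 1 (-0.52), PEP4 without any 1 of the deletion arrays or reference array 2 or 3, and PAI3 gained a call without reference array 1 (-0.48).

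**Figure D3:**
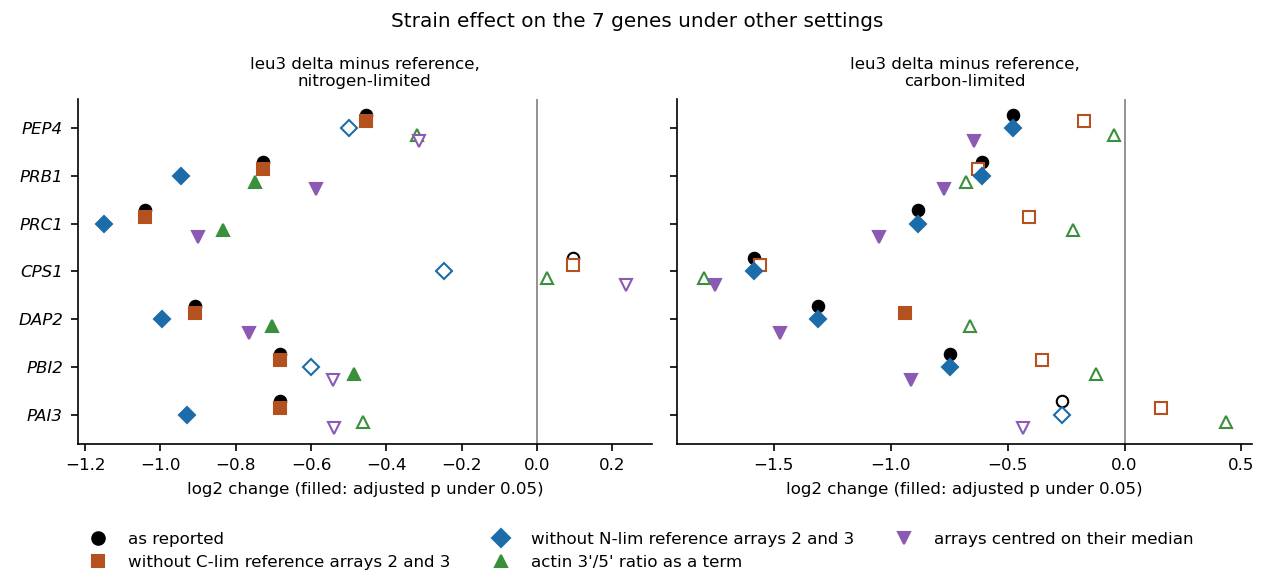
Log2 strain change of each gene as reported and under 4 other settings, filled where the adjusted p is under 0.05. Under carbon limitation PEP4, PRC1, PBI2 and PAI3 move towards or past 0 without reference arrays 2 and 3 and with the actin term, while PRB1 and CPS1 keep their size without a call. Under nitrogen limitation the values stay on their side of 0 except for CPS1.

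The comparison of limitations asks how the same genes respond to the nutrient regime. In both strains CPS1 and DAP2 were higher with nitrogen limiting, PBI2 and PAI3 were lower, and PEP4, PRB1 and PRC1 did not pass. In the reference 32.6% of all genes were called higher and 14.9% lower, and in the deletion strain 18.1% and 17.8%. Calls in either direction made up 47.6% and 35.8% of all genes, so 4 of 7 in each strain was near the background. Centring the arrays turned the reference's split over all genes from 1737 higher and 795 lower to 951 higher and 1370 lower. It also brought PRC1 past the threshold there (-0.59), as did leaving out carbon-limited reference array 1 (-0.56). Without carbon-limited reference arrays 2 and 3, which had the highest actin ratios, PRC1 stood at 0.15 in the reference. In the deletion strain PRC1 passed under 10 of 25 alternatives, with adjusted p from 0.0095 to 0.149 over all of them. The calls of CPS1, DAP2 and PAI3 held under all 25 alternatives in both strains, and that of PBI2 did so in the deletion strain. In the reference PBI2 missed the threshold without carbon-limited reference arrays 2 and 3 (-0.33) and with the actin term (-0.27). The strain comparisons and the limitation comparisons use the same arrays, so their values are not independent of each other.

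The strain effect differed between limitations for CPS1 alone of the 7 (interaction 1.68 ± 0.41, adjusted p = 0.0114). Over all genes 18.3% were called, 5.24% in the same direction and 13.1% in the other, so 1 of the 7 genes was near the background. For the other genes the interaction lay between -0.41 for PAI3 and 0.40 for DAP2, with adjusted p of 0.273 or more. Their 95% intervals reached from -0.99 to 0.93, so differences within that range were not excluded for every gene. The CPS1 interaction was 0.94 with a floor of 30 (adjusted p = 0.226) and 1.66 without carbon-limited reference arrays 2 and 3 (adjusted p = 0.071).

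Each protease was set against its own inhibitor on the same array, which removes the scaling of the array. The log2 difference shows unequal change, and its sign and size within a group carry no meaning because they come from different probe sets. TFS1 (YLR178C), which encodes the inhibitor of carboxypeptidase Y and is not among the 7 genes, was used for PRC1. With nitrogen limiting it gave 585.9, 346.0 and 521.4 in the reference against 198.2, 219.1 and 198.1 in the deletion strain. With carbon limiting it gave 449.4, 764.1 and 685.2 in the reference against 489.9, 551.8 and 518.6 in the deletion strain. It was low in 1 group and its arrays overlapped in the other groups, with a fall of 1.21 ± 0.21 log2 in the nitrogen-limited deletion strain (adjusted p = 0.000801) and -0.25 under carbon limitation (adjusted p = 0.398).

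PEP4 minus PAI3 was 4.55 to 4.94 in the nitrogen-limited reference and 4.89 to 5.15 in the nitrogen-limited deletion strain, against 3.10 to 3.39 and 3.00 to 3.17 in the carbon-limited groups. Protease signal relative to inhibitor signal was therefore 2.79-fold and 3.78-fold higher under nitrogen limitation in the reference and the deletion strain. PRB1 minus PBI2 was 0.03 to 0.57 and 0.02 to 0.38 in the nitrogen-limited reference and deletion strain, and -0.84 to -0.07 and -0.69 to -0.09 in the carbon-limited ones. It was likewise higher under nitrogen limitation, by 0.76 in the reference and 0.58 in the deletion strain (1.69-fold and 1.49-fold). Each of these 4 comparisons had no overlap and gave a two-sided exact permutation p of 0.1, the smallest that 3 against 3 arrays allow. In them the inhibitor genes moved. PAI3 changed by -1.56 in the reference and -1.97 in the deletion strain, and PBI2 by -0.72 and -0.66. The changes of PEP4 (-0.07 and -0.05) and PRB1 (0.04 and -0.08) did not pass. On carbon-limited reference arrays 1, 2 and 3, PRB1 minus PBI2 was -0.07, -0.55 and -0.84. Without arrays 2 and 3 its difference between limitations in the reference was 0.35. Between strains, PEP4 minus PAI3 differed by 0.23 and -0.21 and PRB1 minus PBI2 by -0.05 and 0.14 under nitrogen and carbon limitation, with overlapping arrays (exact p = 0.2 to 0.9). PRC1 minus TFS1 was 0.63 lower in the carbon-limited deletion strain than in the reference and 0.86 higher under nitrogen than under carbon limitation in the deletion strain, both without overlap (exact p = 0.1). Its other differences were 0.16 and 0.06 (exact p = 0.7 and 1). Between limitations in the deletion strain PRC1 itself stood at -0.48, and TFS1 fell further. All 12 comparisons of this family gave a Benjamini-Hochberg adjusted p of 0.2 or more.

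**Figure D4:**
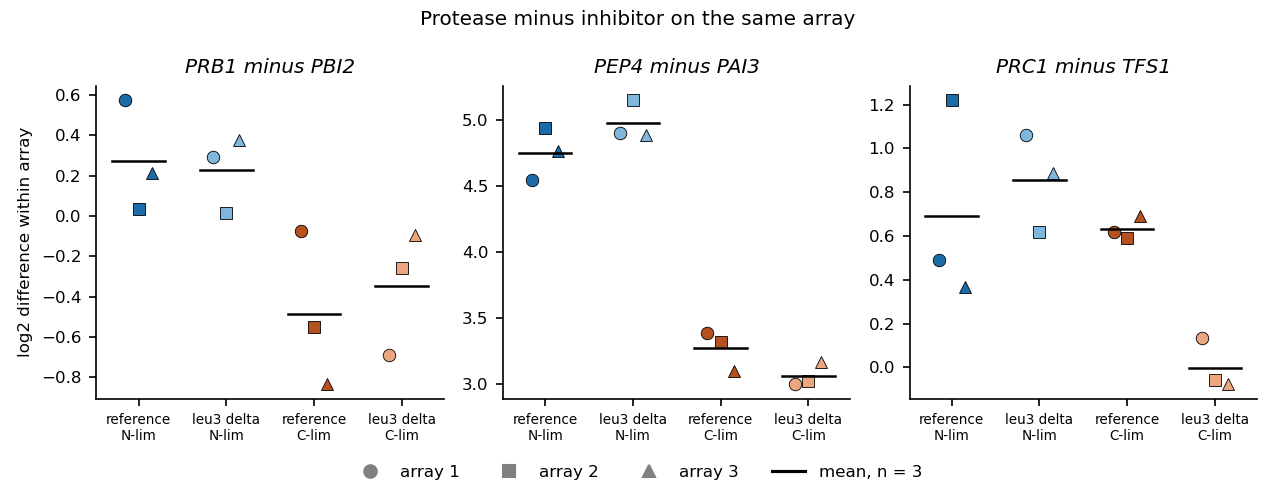
Log2 intensity of a protease gene minus that of its inhibitor on the same array, for 3 pairs and 4 groups of 3 arrays, with group means as lines. PEP4 minus PAI3 separates the limitations, at 4.55 to 5.15 against 3.00 to 3.39, whereas the strains overlap within each limitation.

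The pattern over the 4 group means was compared between genes after each was centred on its own mean, with the root mean square difference as the measure. Among the 7, PEP4 and PRB1 were the closest pair (0.11 log2), followed by PRC1 and PBI2 (0.20), and CPS1 and PAI3 were the farthest apart (2.61). The measure is not scaled by how far a gene moves, so genes that change little lie close by construction. PEP4 and PRB1 spanned the least of the 7, and CPS1 (4.18) and PAI3 (2.24) the most. Of 4776 other genes above the floor on all arrays, the closest to PRC1 were HMG2 (0.04), CRS5 (0.07) and PEX17 (0.08). The closest to DAP2 were OAC1 (0.12), SSK1 (0.14) and NRG1 (0.16), and the closest to PBI2 were CNL1 (0.04), PAU15 (0.06) and DNF2 (0.07). PAI3 was closest to KNH1 (0.07), RGI1 (0.08) and MLS1 (0.12), the last of them the gene of malate synthase. CPS1 had no near match: VBA1, a vacuolar transporter of basic amino acids, DAL5, the allantoate permease gene, and DAL7, a malate synthase gene, were nearest at 0.54, 0.59 and 0.61. PEP4 and PRB1 spanned less than 1 log2 unit (0.53 and 0.73) and were not matched. With 4 groups and shared arrays, such likeness is a description.

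A list of 11 genes held other hydrolases of the vacuole and TFS1. Of these 11, 8 fell, TFS1 among them, and 1 rose in the nitrogen-limited deletion strain, where 16.1% and 6.05% of all genes did. Their median was -0.81 against -0.11 for all genes. Besides TFS1, RNY1, a vacuolar ribonuclease, fell by 1.13 ± 0.19 (adjusted p = 0.000573), and APE4, an aminopeptidase, by 0.95 ± 0.17 (adjusted p = 0.000922). The gene that rose was ATG15, a lipase of the vacuole (adjusted p = 8.28e-05). It gave 45.7 to 99.4 in the deletion strain and 12.2, 21.4 and 6.9 in the reference, with 2 of 3 reference arrays above the floor, so its change of 2.12 is a lower bound. Under carbon limitation APE3, the gene of aminopeptidase Y, fell (-0.62 ± 0.16, adjusted p = 0.0114), ATG15 rose and 9 did not pass, near the 28.1% called over all genes, with a median of -0.08. ATG15, for which the brightest of 3 probe sets was used, gave 132.1 to 138.7 in the deletion strain. On reference arrays 1, 2 and 3 it gave 19.2, 5.1 and 4.1. Its rise of 3.27 takes the last 2 values as 12, and both come from the arrays with the highest actin ratios. APE3 stood at -0.31 without carbon-limited reference arrays 2 and 3 and did not pass.

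Between limitations the same 11 genes, TFS1 included, went both ways, as the 7 genes did. In the reference 6 of 11 rose and 2 fell with nitrogen limiting, where 32.6% and 14.9% of all genes did. The largest rises were those of APE1, the aminopeptidase delivered by the cytoplasm-to-vacuole pathway (1.72 ± 0.19, adjusted p = 3.13e-06), and ATG42, a relative of PRC1 (1.42 ± 0.20, adjusted p = 4.35e-05). ATH1, the acid trehalase gene, fell in both strains (-1.38 and -1.86). In the deletion strain 1 rose, APE1 (1.19), and 4 fell, with TFS1 at -1.34 and ATG15 at -1.10. Over all genes 18.1% rose there and 17.8% fell.

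Of 10 tested relatives of the proteases that act outside the vacuole or have no known vacuolar role, 1 was called between strains under nitrogen limitation and 2 under carbon limitation, below or near the 22.2% and 28.1% over all genes. YOL153C, a reading frame related to CPS1, was at least 2.32-fold lower in the nitrogen-limited deletion strain (adjusted p = 3.6e-05), where all 3 arrays were below the floor. Under carbon limitation YOL153C fell (-0.64), with deletion values just above the floor, and YSP3, which is related to PRB1, rose (0.88). Neither passed there without carbon-limited reference arrays 2 and 3 (-0.65 and 0.72). Between limitations 5 rose and 1 fell in the reference, where 32.6% and 14.9% of all genes did. In that comparison BAR1, the a-cell protease that degrades alpha factor, rose by 1.89 and YPS3 fell by 0.87. The corresponding counts were 4 and 1 in the deletion strain, where 18.1% of all genes rose and 17.8% fell.

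Genes of the vacuolar ATPase, the proton pump that acidifies the vacuole, moved with the limitation. With nitrogen limiting 13 of 15 rose in each strain and none fell, where 32.6% of all genes rose in the reference and 18.1% in the deletion strain. Their medians were 0.85 in the reference and 0.78 in the deletion strain against 0.19 and 0.02 for all genes. In the reference VMA8 rose by 1.17 ± 0.16 (adjusted p = 3.19e-05), and in the deletion strain VMA6 rose by 1.39 ± 0.15 (adjusted p = 2.96e-06). Between strains 2 fell under nitrogen limitation, VMA1 (-0.58) and VMA7 (-0.45), neither of which was called after the arrays were centred. Under carbon limitation 2 rose and 1 fell, where 17.4% and 10.7% of all genes did, with a median of -0.22 against 0.05 for all genes. The number of calls there ranged from 0 to 8 over 25 alternative settings, and from 1 to 4 with 1 array left out.

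Vacuolar amino acid transporters, which pass the products of proteolysis to the cytosol or store them, included 8 of 13 genes higher and 1 lower with nitrogen limiting in the reference, where 32.6% and 14.9% of all genes were, and 7 and 1 in the deletion strain, where 18.1% and 17.8% were. VBA1 led with 2.98 ± 0.16 and 2.83 ± 0.16 (adjusted p = 5.6e-10 and 1.12e-09), and AVT3 fell by 0.89 and 1.01. Between strains 1 rose and 1 fell under nitrogen limitation (0 to 3 calls with 1 array left out), and 3 rose and 1 fell under carbon limitation (2 to 4, and 0 with the actin term). These counts are near or below the 22.2% and 28.1% called over all genes. Of 25 tested genes of sorting to the vacuole, 4 fell in the nitrogen-limited deletion strain, near the 16.1% over all genes (2 to 5 calls with 1 array left out). Among them was PEP1, which encodes the sorting receptor of carboxypeptidase Y (-0.97 ± 0.18, adjusted p = 0.00137). Under carbon limitation 7 rose and 3 fell, where 17.4% and 10.7% of all genes did. The 10 calls became 6 to 11 with 1 array left out, 5 with only the carbon-limited arrays in the fit, 1 without reference arrays 2 and 3 and 0 with the actin term. PEP1 stood at -1.03 and at -0.54 without reference arrays 2 and 3, where it did not pass. Between limitations 11 rose and 1 fell in the reference (7 to 15 calls with 1 array left out) and 3 rose in the deletion strain, where 32.6% and 18.1% of all genes rose.

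**Figure D5:**
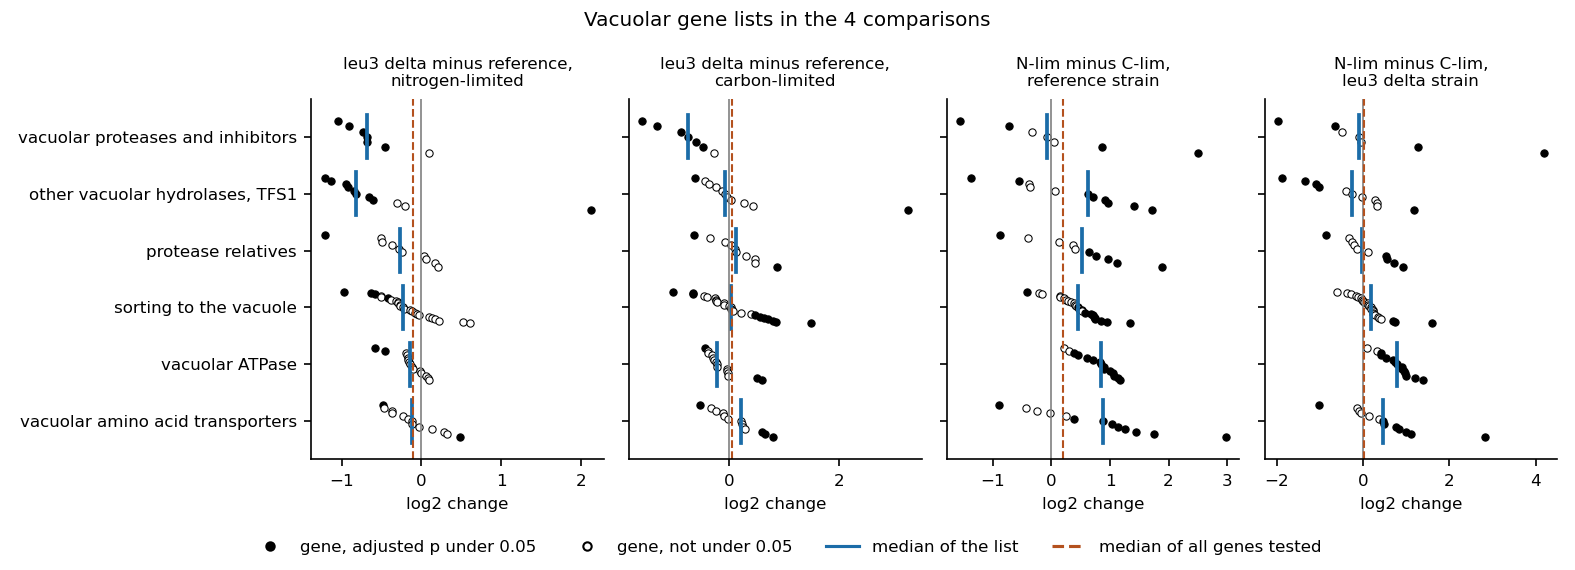
Log2 change of each tested gene of 6 lists in the 4 comparisons, filled at an adjusted p under 0.05, with list medians as solid blue lines and the median of all genes dashed. In the nitrogen-limited strain comparison the 7 genes have a median of -0.68, and the other hydrolases with TFS1 have a median of -0.81. The vacuolar ATPase genes have medians of 0.85 and 0.78 between limitations.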

How the data were processed

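Total RNA of 12 chemostat samples had been hybridised to Affymetrix yeast arrays (9335 probe sets). The deposited values are linear intensity, scaled by the authors, as the values show: without the lowest and highest 2% of probe sets, array means were 150.1 to 150.14. The software is not given in the sources used here. Intensities carry no counting depth, so 3 arrays per group limit the precision. Groups came from the sample titles, which number the arrays without naming separate cultures, so p-values measure the spread between these samples, which may be technical.

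Of the probe sets, 6504 had 1 gene, 328 several and 2503 none. The platform annotation named them, with symbols updated from RefSeq by gene number. The brightest probe set was used for a gene. Values below 12 were set to 12 before log2, and genes above 12 on at least 3 arrays were tested (5321). One model with 4 group means was fitted in limma 3.58.1 (R 4.3.3), two-sided, with Benjamini-Hochberg adjustment over all genes tested. The genes and lists were chosen with earlier results of these data known. Named are the 7 genes, TFS1, LEU3, up to 4 called genes of each list per comparison, and the 3 closest patterns of each gene spanning at least 1 log2 unit. VMA9 and VBA3 were not analysed here. RRT12 and PEP3 did not pass the filter. Same-numbered arrays were not paired: correlations of their deviations ranged from -0.31 to 0.16 over 18 pairs.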

Additional observations from a re-analysis of the deposited data

Results flagged for a closer look

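CPS1 is listed because its strain effect differed between the limitations by a test of the difference itself, limma's interaction term: 1.68 log2 (adjusted p = 0.0114), from -1.59 under carbon limitation to 0.10 under nitrogen limitation. The interaction term called 18.3% of all genes, so 1 of the 7 genes was near the background. In carbon-limited cultures all 3 deletion arrays (17.2 to 18.8) lay below all 3 reference arrays (53.1 to 54.5). In nitrogen-limited cultures the arrays overlapped. The interaction was not called with a floor of 30 (0.94, adjusted p = 0.226) or without carbon-limited reference arrays 2 and 3 (1.66, adjusted p = 0.071).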

How the results depend on the processing

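Over 868 recalculations of the 35 changes of the 7 genes under 25 settings, 776 kept their direction and their side of the threshold, 45 lost and 13 gained a call, and 34 changed sign, none of them for a called change. With the replicate number as a block, PEP4 lost its nitrogen-limited strain call (-0.45, adjusted p = 0.0602), and no other call of the 7 genes changed. The cause of the moves below was not tested. Without nitrogen-limited reference arrays 2 and 3, 715 genes were called between strains under nitrogen limitation (1181 as reported), 1513 between limitations in the reference (2532) and 504 in the interaction (976). CPS1 in the nitrogen-limited strain comparison was then -0.25 and the PEP4 interaction -0.022. PRB1 minus PBI2 was -0.34 and PEP4 minus PAI3 was 0.43 between nitrogen-limited strains, and the latter was 1.28 between limitations in the reference. Without carbon-limited reference arrays 2 and 3 the counts were 338 between carbon-limited strains (1494, with 1 of the 7 genes), 1556 and 634 (with 0 of the 7). PAI3 was 0.16 in that strain comparison, PEP4 and PRC1 were 0.23 and 0.15 between limitations in the reference, and the interactions of PEP4 and PBI2 were -0.28 and -0.33. PRB1 minus PBI2 was -0.27 between carbon-limited strains and 0.35 between limitations in the reference. With the actin term the counts were 54 (with 0 of the 7 genes), 1289 and 417. PAI3 was 0.43, PEP4, PRB1 and PRC1 were 0.23, -0.011 and 0.15 between limitations in the reference, and the interactions of PEP4, DAP2 and PBI2 were -0.27, -0.042 and -0.37. With only the groups compared in the fit, which leaves fewer samples, 805 genes were called between carbon-limited strains.

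Quantile normalization gave PEP4 0.28 and 0.011 between limitations in the reference and the deletion strain and interactions of -0.27 for PEP4 and -0.21 for PBI2. PEP4 minus PAI3 was then 0.005 and 0.042 between nitrogen- and carbon-limited strains and 2.04 between limitations in the reference. Centring left 3 of the 7 nitrogen-limited strain calls and gave PRB1 -0.23 between limitations in the reference and interactions of 0.19 for PRB1 and 0.15 for PRC1. With 16 added before log2, PEP4 minus PAI3 was 1.28 and 1.57 between limitations. A floor of 30 left 0 of the 7 interaction calls. Leaving out 1 array gave 3 to 6 nitrogen-limited strain calls among the 7 genes. CPS1 there ranged from -0.35 to 0.37. Between limitations PEP4 ranged from -0.23 to 0.042 and PRB1 from -0.070 to 0.17 in the reference, and PRB1 from -0.17 to 0.019 in the deletion strain. The interactions ranged from -0.093 to 0.18 for PEP4, -0.071 to 0.26 for PBI2 and -0.29 to 0.079 for PRC1. Signal over background limited CPS1 most, whose carbon-limited deletion values lay just above the floor.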
